A study of Arabidopsis thaliana with 9 samples.

Results

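The transcriptomes of 2 transgenic Arabidopsis thaliana lines were compared directly with each other, OE UPAT seedlings against OE APOLO seedlings, to see which pathways separate plants that carry 2 long noncoding RNAs (lncRNAs) with no apparent similarity in sequence. The comparison takes the 3 libraries labelled OE UPAT (A, B and C) against the 3 labelled OE APOLO, 6 of the 9 libraries of the series, and the 38194 gene rows of the 69383 features counted, the other 31189 rows being transposable elements. OE APOLO carries the Arabidopsis lncRNA gene APOLO, and OE UPAT the human lncRNA gene UPAT, each behind the 35S promoter of a plant virus, which is active in nearly all plant cells. Both lines are in the Columbia (Col-0) background, and per the study's methods each is represented by 1 line, OE APOLO-1 and OE UPAT-1, so that a difference between the lncRNAs and a difference between 2 single lines cannot be told apart. All seedlings were 4 days old, grown at 23 °C on half-strength medium with 16 h of light and 8 h of dark. The 3 libraries of untransformed wild-type seedlings (WT) of the same age and conditions entered no test here and are given only as levels beside those of the lines.

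APOLO is transcribed beside an auxin-regulated kinase gene and acts at many other genes, many of them in auxin response and root hair growth, through RNA-DNA hybrids and the Polycomb protein LHP1. UPAT was found in human cells, where it binds UHRF1, a protein that reads methylated DNA and whose relatives in Arabidopsis are the VIM proteins. The study asked whether both lncRNAs act on VIM1 and LHP1 in plants, and the direct comparison shows what differs between the lines beside anything they share.

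The lines were checked first for their own transcripts. The APOLO gene (AT2G34655, chr2:14596565-14597543, plus strand) was counted 1, 3 and 3 times in the OE APOLO libraries, 1, 1 and 0.5 times in OE UPAT and 2, 2 and 2 times in WT. No library passed a floor of 3 counts, and OE APOLO showed no clear excess over WT. The label of OE APOLO was therefore not borne out by its own transcript in these counts, and the cause was not tested. UPAT, a human gene, has no row. Gene totals ran from 11887311 to 14078290 counts in OE APOLO and from 7883571 to 9184836 in OE UPAT, so every OE UPAT library was shallower. Within a line the libraries correlated at 0.984 to 0.990 across genes (Pearson, log2 CPM) and between the lines at 0.963 to 0.972. CPM is the count relative to the library size, scaled by TMM factors, and 3 counts corresponded to 0.221 to 0.392 CPM in these 6 libraries. Of 14 root tissue markers tested none was called by edgeR (1 higher and 1 lower at an unadjusted p under 0.05, and 0 by DESeq2), and their summed level was 200.4 to 247 CPM in OE APOLO and 192 to 219 in OE UPAT. In whole seedlings, fewer cells of a type and less RNA per cell cannot be told apart.

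A total of 2861 of 19290 genes tested differed between the lines, 1327 higher and 1534 lower in OE UPAT (14.8% of genes called in either direction, 6.88% higher and 7.95% lower, by edgeR's quasi-likelihood test at a false discovery rate, FDR, under 0.01). The median absolute log2 fold change of called genes was 0.62, and for 685 of them, 3.55% of genes tested, it reached 1 or more (340 higher and 345 lower). The median over all genes tested was -0.01. All 2861 called genes had groups of libraries that did not overlap, which was the case for 8210 of all genes tested, or 42.6%. With upper-quartile scaling the count was 2901, but the split turned to 1698 higher and 1203 lower (58.5% higher, against 46.4% with TMM). Without OE UPAT B or OE UPAT C, the count was 1527 or 1441. The plot of fold change against level shows the spread.

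**Figure D1:**
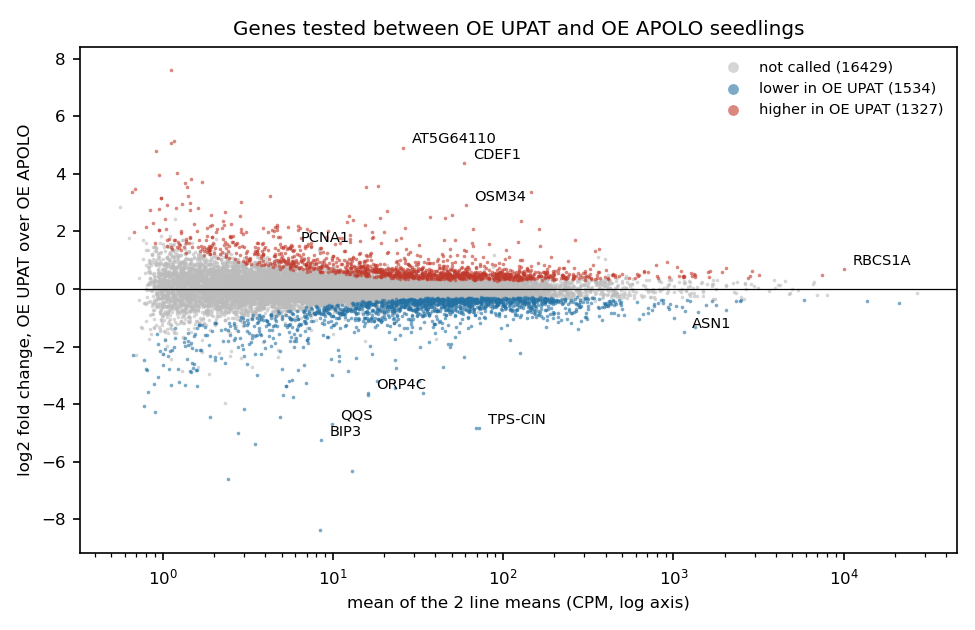
Log2 fold change of OE UPAT over OE APOLO (vertical axis) against the mean level of the lines in CPM (horizontal axis, log scale) for 19290 genes, each point 1 gene. The 1327 genes called higher are red, the 1534 called lower are blue, and labelled genes are described in the text.

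The gene with the smallest p-value was CDEF1 (AT4G30140, chr4:14738326-14740742, minus strand), a cutinase-like esterase. It was at 4.83, 4.39 and 7.01 CPM in OE APOLO and at 115, 107 and 116 CPM in OE UPAT (log2 fold change 4.39 ± 0.13, edgeR FDR = 2.78e-09), with WT at 42.1, 17.9 and 27.5. In the 3 groups the libraries do not overlap, and WT lies between the lines. Some of its reads were shared with another feature, so its level is uncertain.

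Other genes with very small p-values and higher levels in OE UPAT were 2 neighbours on chromosome 2 that encode relatives of L-gulono-1,4-lactone oxidase, an enzyme that makes ascorbate in animals. GulLO2 was at 2.87, 1.7 and 4.04 CPM in OE APOLO and at 32.9, 30.8 and 38.8 CPM in OE UPAT (log2 fold change 3.59 ± 0.20, edgeR FDR = 4.28e-07). GulLO5 was at 16.4, 11.1 and 15.9 CPM in OE APOLO and at 90.8, 85.4 and 79.2 CPM in OE UPAT (log2 fold change 2.56 ± 0.13, edgeR FDR = 1.52e-07). They were joined by 2 neighbouring class III peroxidase genes on chromosome 5, whose enzymes oxidise cell wall phenolics. AT5G64110 was at 1.66, 0.664 and 2.75 CPM in OE APOLO and at 44.6, 40.2 and 65.7 CPM in OE UPAT (log2 fold change 4.91 ± 0.29, edgeR FDR = 5.47e-07). AT5G64120 was at 30.9, 16.2 and 31.1 CPM in OE APOLO and at 224, 249 and 326 CPM in OE UPAT (log2 fold change 3.35 ± 0.21, edgeR FDR = 8.5e-07). In all 4 genes the lowest OE UPAT library was more than 2 times the highest OE APOLO library, and values in WT (58.1, 32.8 and 40.1 CPM for AT5G64120) lay between. Fractions in the counts of GulLO2 and GulLO5 show that they shared reads.

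OSM34, which encodes an osmotin-like defence protein, was at 16.7, 11.2 and 14.4 CPM in OE APOLO and at 88.6, 109.9 and 121 CPM in OE UPAT (log2 fold change 2.92 ± 0.14, edgeR FDR = 1.52e-07). AT2G43590, a chitinase gene, was at 10.9, 8.64 and 14.2 CPM in OE APOLO and at 61.7, 68.5 and 59 CPM in OE UPAT (log2 fold change 2.5 ± 0.14, edgeR FDR = 3.84e-07). ENH1, a chloroplast rubredoxin-like protein linked to salt tolerance, was at 54.7, 58.4 and 61.4 CPM in OE APOLO and at 143, 143 and 159 CPM in OE UPAT (log2 fold change 1.35 ± 0.08, edgeR FDR = 5.47e-07). For the chitinase and ENH1 genes WT resembled OE APOLO more, with means of 13.2 and 70.4 CPM.

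On the other side, the smallest p-values belonged to the tandem pair of 1,8-cineole synthase genes, both named TPS-CIN, whose enzyme makes a volatile monoterpene in roots. The copy AT3G25820 (chr3:9439146-9442774, plus strand) was at 141, 115 and 164 CPM in OE APOLO and at 5.91, 4.75 and 3.94 CPM in OE UPAT (log2 fold change -4.83 ± 0.17, edgeR FDR = 6.06e-09). The counts of both copies hold fractions from shared reads, so that AT3G25820 and AT3G25830 cannot be told apart and are counted as 1 measurement. WT, at 23.9, 41.5 and 31.9 CPM, was between the lines.

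ORP4C, an oxysterol-binding-protein relative, was at 28.4, 33.6 and 26.9 CPM in OE APOLO and at 2.09, 2.93 and 2.22 CPM in OE UPAT (log2 fold change -3.61 ± 0.16, edgeR FDR = 8.79e-08). QQS, a gene found only in Arabidopsis thaliana that affects starch content, was at 18.1, 22.2 and 16.9 CPM in OE APOLO and at 0.878, 0.651 and 0.653 CPM in OE UPAT (log2 fold change -4.69 ± 0.22, edgeR FDR = 8.79e-08). FAR1 (AT5G22500), a fatty acyl reductase that makes alcohols for suberin, was at 39, 45.5 and 38 CPM in OE APOLO and at 5.82, 7.59 and 4.57 CPM in OE UPAT (log2 fold change -2.75 ± 0.15, edgeR FDR = 2.98e-07). WT differed among them, at 22.1, 25.4 and 23.4 CPM for ORP4C, near OE APOLO, but at 0.864, 2 and 1.01 for QQS and 6.26, 12.7 and 7.04 for FAR1, near OE UPAT.

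Stress genes with the largest fold changes on the lower side had uneven libraries. ECP63, a late embryogenesis protein gene, was at 36.1, 7.9 and 6.11 CPM in OE APOLO and at 0, 0 and 0.131 CPM in OE UPAT, that is 1 count over all of OE UPAT, and no fold is given. BIP3, an endoplasmic reticulum chaperone induced by unfolded proteins, was at 36, 7.46 and 6.28 CPM in OE APOLO and at 0.549, 0.434 and 0.261 CPM in OE UPAT (log2 fold change -5.26 ± 0.88, edgeR FDR = 0.000985). In OE UPAT C it lay under the floor of 3 counts (0.392 CPM in that library), so the size of its fold is uncertain. AT1G18830, encoding a Sec31-like coat protein, was at 52.1, 14.9 and 9.8 CPM in OE APOLO and at 0.22, 0.542 and 0.131 CPM in OE UPAT, with only 2, 5 and 1 counts in OE UPAT, and no fold is given. In all 3 the library OE APOLO A was more than 3 times OE APOLO B and C, and in WT the library B stood highest (5.26, 22.7 and 9.05 CPM for BIP3). The call of BIP3 was lost without OE UPAT B.

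To describe the comparison by pathway, 53 lists of genes of known role were used, and 320 of their 974 different tested genes were called, 127 higher and 193 lower (32.9%, against 14.8% of all genes tested). The lists were chosen with earlier results of these data known, so that the gap between these shares is no independent result, and they are described by counts and medians. A single number in brackets after a gene is its log2 fold change of OE UPAT over OE APOLO, and ± gives the standard error. Many lists lost or gained calls without OE UPAT B or C, when 204 or 201 of the 320 members were called. The plot of list members shows that sulfate, Calvin cycle, DNA replication and the listed ribosomal protein genes lay to the higher side. Abscisic acid, starvation, morning clock, light-growth, Aux/IAA, SAUR, XTH and aquaporin genes lay to the lower side.

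**Figure D2:**
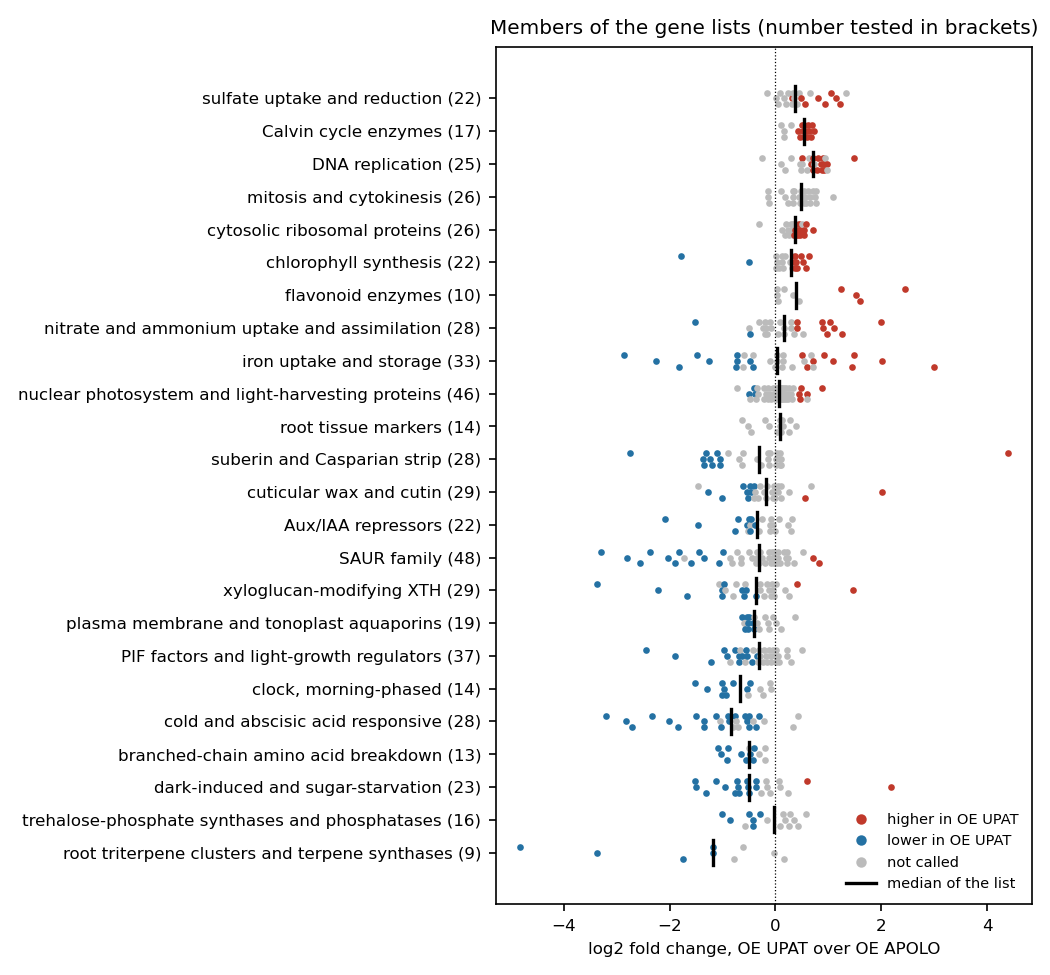
Log2 fold change of OE UPAT over OE APOLO (horizontal axis) of each tested member of 24 gene lists, each point 1 gene, red where called higher, blue where called lower and grey where not called. Black bars are list medians: 0.71 for DNA replication, 0.53 for the Calvin cycle and -0.85 for cold and abscisic acid responsive genes.

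Sulfate assimilation genes were higher in OE UPAT. Plants take up sulfate, activate it, reduce it through adenosine phosphosulfate reductases (APR), the controlled step, and build cysteine and glutathione. Of 22 tested genes of this pathway 8 were higher and none lower (median log2 fold change 0.37). APR3 was at 41.9, 43 and 48.1 CPM in OE APOLO and at 82.7, 96.6 and 96.1 CPM in OE UPAT (log2 fold change 1.05 ± 0.09, edgeR FDR = 7.83e-06), with WT at 26.8, 27.5 and 25.9. APR2 was at 34.8, 38.5 and 34.1 CPM in OE APOLO and at 66.8, 66.7 and 72 CPM in OE UPAT (log2 fold change 0.93 ± 0.08, edgeR FDR = 9e-06). APR1 was at 8.82, 8.71 and 7.91 CPM in OE APOLO and at 18.8, 19.7 and 21.3 CPM in OE UPAT (log2 fold change 1.23 ± 0.12, edgeR FDR = 1.65e-05). All 3 reductases were lowest in WT, intermediate in OE APOLO and highest in OE UPAT, with no overlap of libraries.

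The root uptake transporter gene SULTR1;2 was at 31.7, 23.5 and 36.1 CPM in OE APOLO and at 72.2, 61.8 and 67.7 CPM in OE UPAT (log2 fold change 1.15 ± 0.13, edgeR FDR = 6.57e-05). Sulfite reductase (SIR, 0.81), ATP sulfurylase (APS1, 0.56), the serine acetyltransferase SERAT2;2 (0.47) and GSH1 (0.31), which makes the glutathione precursor, were the other called members with smaller log2 fold changes. The call of GSH1 was lost on leaving out any 1 of the 6 libraries, and that of SERAT2;2 without OE UPAT B or C. The mean of WT was below both lines for all 8. Of 8 tested genes known to respond to low sulfur, 4 were higher, but this count was 2 by DESeq2, 0 on leaving out any 1 OE UPAT library and 1 and 2 without OE APOLO B and C. Among glucosinolate genes, which use this sulfur for defence compounds, CYP83B1 of the indole branch was at 33.9, 21.5 and 24.1 CPM in OE APOLO and at 67.6, 70.0 and 73.4 CPM in OE UPAT (log2 fold change 1.41 ± 0.13, edgeR FDR = 1.8e-05). MYB28, the regulator of the aliphatic branch, was at 9.2, 9.82 and 6.62 CPM in OE APOLO and at 15.4, 14.4 and 17.2 CPM in OE UPAT (log2 fold change 0.86 ± 0.15, edgeR FDR = 0.00151). The MYB28 call was lost without OE UPAT C. IMS2 (also MAM3), which elongates the aliphatic chain, was at 0.151, 0.0738 and 0.344 CPM in OE APOLO and at 2.53, 2.49 and 3.26 CPM in OE UPAT, with only 2, 1 and 4 counts in OE APOLO, and no fold is given. In all, 3 of 10 aliphatic genes were higher and 1 lower, and 4 of 16 indole genes were higher and 1 lower, the indole count of higher genes being 2 without OE APOLO B or OE UPAT B or C.

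Nitrogen genes moved in both directions, mostly upward: of 28 tested, 9 were higher and 2 lower (median 0.17). The ammonium transporter gene AMT1;2 was at 7.24, 4.58 and 8.86 CPM in OE APOLO and at 26.5, 27.7 and 27.4 CPM in OE UPAT (log2 fold change 1.99 ± 0.17, edgeR FDR = 1e-05). GSR2 (also GLN1;2), a cytosolic glutamine synthetase, was at 119.9, 114 and 131 CPM in OE APOLO and at 229.6, 259.6 and 297 CPM in OE UPAT (log2 fold change 1.11 ± 0.10, edgeR FDR = 9.98e-06). NIR1, the nitrite reductase, was at 108, 114 and 113 CPM in OE APOLO and at 196, 201 and 229 CPM in OE UPAT (log2 fold change 0.90 ± 0.08, edgeR FDR = 1.03e-05). UPM1 (0.87), which makes the cofactor of nitrite and sulfite reductases, the ammonium transporter gene AMT1;3 (1.26) and the root-to-shoot nitrate transporter gene NRT1.5 (1.02) were also higher. For all 9 the mean of WT was nearer OE APOLO. Lower were LBD37 (-0.47), a repressor of nitrogen genes whose call was lost without OE APOLO B or OE UPAT A or C, and ASN1, described with the starvation genes. Phosphate starvation genes numbered 4 higher and 0 lower of 19 (median 0.20), among them the transporter genes PHT1;1 (1.15) and PHT1;2 (1.36), which share reads, and without OE UPAT B the count was 2.

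Iron genes moved in both directions, with 9 higher and 10 lower of 33 tested (median 0.04). The subgroup Ib bHLH factors, which rise when iron is short, were lower: BHLH101 was at 17.9, 23.2 and 23.7 CPM in OE APOLO and at 3.18, 3.47 and 2.09 CPM in OE UPAT (log2 fold change -2.87 ± 0.19, edgeR FDR = 1.16e-06). bHLH38 was at 6.94, 6.87 and 5.07 CPM in OE APOLO and at 1.32, 1.63 and 0.946 CPM in OE UPAT (log2 fold change -2.27 ± 0.25, edgeR FDR = 5.74e-05), and bHLH39 and BHLH100 had log2 fold changes of -1.82 and -1.48. Lower too were BTS (-0.74), an E3 ligase that restrains the iron response, PYE (-0.74), a bHLH repressor, FRO3 (-0.74), a mitochondrial ferric reductase, and OPT3 (-0.48), a phloem iron transporter. For all 10 lower genes the mean of WT lay between the lines.

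Called higher were genes of several roles. NAS1, which makes the chelator nicotianamine, was at 4.22, 3.175 and 3.7 CPM in OE APOLO and at 13.9, 13.99 and 16.8 CPM in OE UPAT (log2 fold change 2.01 ± 0.16, edgeR FDR = 5.18e-06). FER3, an iron storage ferritin, was at 21.3, 27.8 and 25.1 CPM in OE APOLO and at 39.97, 48.7 and 51.3 CPM in OE UPAT (log2 fold change 0.91 ± 0.12, edgeR FDR = 0.000149). FRU (also FIT), the main root iron uptake factor, was at 3.02, 2.29 and 2.67 CPM in OE APOLO and at 6.7, 7.48 and 7.57 CPM in OE UPAT (log2 fold change 1.44 ± 0.18, edgeR FDR = 0.000146). Its groups did not overlap, yet its known targets IRT1 (log2 fold change 0.14 ± 0.24, edgeR FDR = 0.7) and FRO2 (log2 fold change 0.71 ± 0.27, edgeR FDR = 0.0703) were not called, although the libraries of FRO2 did not overlap, and IRT2 was lower (-1.26), a call lost on leaving out any 1 OE UPAT library.

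Calvin cycle genes, which fix carbon in chloroplasts, were higher in OE UPAT as a group: 13 of 17 tested were higher and none lower (median 0.53), and all 17 had a positive log2 fold change. FBA1, a chloroplast aldolase, was at 299.8, 319.9 and 311 CPM in OE APOLO and at 449.8, 455 and 568 CPM in OE UPAT (log2 fold change 0.66 ± 0.09, edgeR FDR = 0.00034). GAPB, glyceraldehyde phosphate dehydrogenase, was at 1484, 1581 and 1535 CPM in OE APOLO and at 2192, 2218 and 2591 CPM in OE UPAT (log2 fold change 0.61 ± 0.09, edgeR FDR = 0.000332). SBPASE, a controlled enzyme of the cycle, was at 485, 559 and 555 CPM in OE APOLO and at 734, 770.1 and 900.2 CPM in OE UPAT (log2 fold change 0.59 ± 0.09, edgeR FDR = 0.000726). In each of these 3 the lowest OE UPAT library was above the highest of the 6 other libraries. RBCS1A, a small subunit of Rubisco that shares reads with its close copies, had a log2 fold change of 0.68. The mean of WT was nearer OE APOLO for all 13.

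Genes of light harvesting were mixed. Of 46 tested nuclear genes of the photosystems and antennae 5 were higher and 3 lower (median 0.07), a share near the 14.8% of all genes tested. The counts were 9 and 6 by DESeq2 and 6 and 1 with upper-quartile scaling. Higher were NPQ4 (0.60), the sensor of energy quenching, and the photosystem genes PSBO2 (0.47), PSBTN (0.48), PSI-P (0.45) and Lhca6 (0.88), while the antenna genes LHB1B1 (-0.41), LHB1B2 (-0.49) and LHCB3 (-0.38) were lower. The higher count was 2 without OE UPAT B or C, and the lower count 7 without OE APOLO A, 1 without OE APOLO B or C and 0 without OE UPAT A or B. In chlorophyll synthesis 9 of 22 were higher and 2 lower (median 0.30), including HEMC (0.51) and CHLI1 (0.49), and the higher count was 4 without OE UPAT B or C. PORA, the dark form of the light-dependent reductase, was lower (-1.79, lost on leaving out any 1 library other than OE APOLO A), and PORC, written POR C in the annotation, a form of green tissue, higher (0.63).

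DNA replication genes were higher without exception among those called: 13 of 25 tested were higher and none lower (median 0.71). The replicative helicase is built of MCM2 to MCM7. MCM4 was at 8.45, 8.86 and 6.97 CPM in OE APOLO and at 14.05, 16.4 and 13.4 CPM in OE UPAT (log2 fold change 0.85 ± 0.14, edgeR FDR = 0.000914). MCM6 was at 5.28, 4.65 and 4.64 CPM in OE APOLO and at 9.77, 10.2 and 8.48 CPM in OE UPAT (log2 fold change 0.97 ± 0.15, edgeR FDR = 0.000692). PRL, which is MCM7, was at 10.5, 12.4 and 10.5 CPM in OE APOLO and at 18.8, 18.5 and 19.97 CPM in OE UPAT (log2 fold change 0.78 ± 0.11, edgeR FDR = 0.00045). In all 6 subunits the OE UPAT libraries were above the OE APOLO and WT libraries, but the call of MCM5 was lost without OE APOLO B or C or OE UPAT A or B.

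PCNA1, the sliding clamp of the polymerases, was at 2.64, 3.77 and 2.67 CPM in OE APOLO and at 9.44, 8.46 and 7.44 CPM in OE UPAT (log2 fold change 1.48 ± 0.19, edgeR FDR = 0.000175). RNR1, the large subunit of ribonucleotide reductase, was at 17.42, 20.16 and 17.9 CPM in OE APOLO and at 34.9, 31.1 and 37.1 CPM in OE UPAT (log2 fold change 0.89 ± 0.10, edgeR FDR = 5.62e-05). CDT1A, which licenses origins, was at 5.58, 5.09 and 5.76 CPM in OE APOLO and at 8.67, 11 and 11.4 CPM in OE UPAT (log2 fold change 0.91 ± 0.16, edgeR FDR = 0.00114). ICU2, the catalytic subunit of polymerase alpha, was at 11.6, 8.86 and 9.55 CPM in OE APOLO and at 24.2, 14.2 and 16.8 CPM in OE UPAT (log2 fold change 0.88 ± 0.18, edgeR FDR = 0.00393), a call lost without OE APOLO B, OE UPAT A or OE UPAT C. For all 13 the mean of WT was nearer OE APOLO.

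Genes of mitosis and cytokinesis leaned the same way without passing the test. None of 26 was called by edgeR or by DESeq2 (median 0.49), while 14 were higher and 0 lower at an unadjusted p under 0.05 and 10 were higher at an FDR under 0.05. Without OE APOLO A, 3 were called higher. CYCB1;1, the G2 to M cyclin, had a log2 fold change of 1.09 and AUR1, a mitotic kinase, 0.71.

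Genes of the S phase are known for binding sites of E2F factors, searched here as TTTCCCGC and TTTGGCGC on either strand. Promoters, the 250 bases before to 50 after each gene start, held either form in 8 of the 13 called replication genes (61.5%), against 1.24% of 19163 promoters of tested genes. Over the whole replication list, called or not, TTTCCCGC stood in 9 of 25 promoters and TTTGGCGC in 4 of 25. The promoters of ICU2 and MCM4 are printed because each carries such a site close to the start beside a raised level. They were read from the RefSeq genome TAIR10.1, 5′ to 3′ along the gene, at chr5:26776703-26777002 (plus strand) and chr2:7130680-7130979 (minus strand). Capitals mark the E2F forms and TGGGCC, named site II, which stands in both promoters on the strand opposite to the letters given.
ICU2: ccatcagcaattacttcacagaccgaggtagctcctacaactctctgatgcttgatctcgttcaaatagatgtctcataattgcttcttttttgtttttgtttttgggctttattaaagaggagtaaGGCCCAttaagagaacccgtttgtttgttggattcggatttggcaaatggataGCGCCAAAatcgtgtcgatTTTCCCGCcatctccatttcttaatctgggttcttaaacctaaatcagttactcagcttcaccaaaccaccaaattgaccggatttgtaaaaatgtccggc
MCM4: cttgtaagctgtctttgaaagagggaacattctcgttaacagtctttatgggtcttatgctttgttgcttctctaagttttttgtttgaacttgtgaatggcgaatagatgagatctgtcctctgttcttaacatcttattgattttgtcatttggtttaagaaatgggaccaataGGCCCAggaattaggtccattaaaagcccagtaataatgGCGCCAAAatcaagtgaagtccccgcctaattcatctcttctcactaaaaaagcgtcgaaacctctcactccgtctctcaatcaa

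Cytosolic ribosomal protein genes of the list were higher as well, by less. Its members were taken by the form of a symbol or synonym (RPL or RPS, a number and a letter). Genes named otherwise are not in the list. Of 26 tested, 12 were higher and none lower (median 0.36). RPS6 (AT4G31700), the phosphorylated protein of the small subunit, was at 86.6, 81.7 and 67.8 CPM in OE APOLO and at 120.2, 133 and 132 CPM in OE UPAT (log2 fold change 0.70 ± 0.09, edgeR FDR = 0.000207). RPL5B, which carries the 5S RNA into the large subunit, was at 134, 122 and 96.6 CPM in OE APOLO and at 162, 158 and 167 CPM in OE UPAT (log2 fold change 0.46 ± 0.10, edgeR FDR = 0.00596), and its reads are partly shared and its call was lost on leaving out any 1 library other than OE APOLO A. The groups did not overlap in either gene, but the ribosomal count depended on single libraries, being 3 without OE UPAT B, 4 without OE UPAT C, 5 without OE APOLO C and 6 without OE UPAT A. The mean of WT lay between the lines for all 12.

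These genes are known for the pair site II (TGGGCC) and telo-box (AAACCCTA). Both were in 5 of the 12 called promoters, and in 1.87% of all. Over the whole list site II stood in 17 of 26 promoters and the telo-box in 14 of 26. Among the 12 called they stood in 8 and 6, so that members that were not called carried them too. RPL5B is shown as an example (chr5:15903029-15903328, plus strand), with both motifs in capitals on the strand opposite to the letters given.
RPL5B: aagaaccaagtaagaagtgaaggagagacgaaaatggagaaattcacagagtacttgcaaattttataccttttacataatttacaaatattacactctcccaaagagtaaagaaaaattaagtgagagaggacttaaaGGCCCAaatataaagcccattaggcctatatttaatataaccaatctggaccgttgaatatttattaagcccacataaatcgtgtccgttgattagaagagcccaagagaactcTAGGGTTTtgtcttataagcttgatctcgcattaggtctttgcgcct

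Genes induced by darkness and sugar shortage were lower in OE UPAT. When carbon runs short, the SnRK1 kinase and bZIP factors switch on genes that free carbon from amino acids and sugars. Of 23 tested genes of this response 14 were lower and 2 higher (median -0.49). ASN1, asparagine synthetase, was at 1637, 1707 and 1760.5 CPM in OE APOLO and at 577, 644 and 569 CPM in OE UPAT (log2 fold change -1.51 ± 0.08, edgeR FDR = 2.98e-07), with WT at 2159, 1915 and 2113. SEN1, a classical marker of dark and senescence, was at 1713, 2156 and 1857 CPM in OE APOLO and at 722, 893 and 675 CPM in OE UPAT (log2 fold change -1.32 ± 0.12, edgeR FDR = 9.94e-06). SIS, a salt-induced serine-rich protein, was at 33.6, 30.6 and 31 CPM in OE APOLO and at 11.1, 12.1 and 10.4 CPM in OE UPAT (log2 fold change -1.50 ± 0.10, edgeR FDR = 1.4e-06). In each the lines did not overlap, and the mean of WT was above that of OE APOLO.

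Also lower were the kelch F-box genes AT1G80440 (-1.11) and AT3G59940 (-0.96), the factor bZIP1 (-0.76) and GDH1 (-0.51), glutamate dehydrogenase. Beyond the list, AT2G44130, a kelch F-box relative with one of the smallest p-values, was at 168, 166 and 175 CPM in OE APOLO and at 44.4, 51.4 and 51.9 CPM in OE UPAT (log2 fold change -1.79 ± 0.08, edgeR FDR = 8.79e-08). The exceptions were MIOX4, myo-inositol oxygenase, higher at 3.09, 1.48 and 2.15 CPM in OE APOLO and at 9.88, 10.4 and 10.3 CPM in OE UPAT (log2 fold change 2.18 ± 0.22, edgeR FDR = 2.84e-05), and EXL4 (0.60).

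Breakdown of branched-chain amino acids followed. Of 13 tested genes 9 were lower and none higher (median -0.50), and all 13 had a negative log2 fold change. MCCA, a subunit of methylcrotonyl-CoA carboxylase, was at 493, 528 and 539 CPM in OE APOLO and at 250.1, 259 and 223 CPM in OE UPAT (log2 fold change -1.09 ± 0.08, edgeR FDR = 2.9e-06). IVD, isovaleryl-CoA dehydrogenase, was at 159, 167 and 171 CPM in OE APOLO and at 86.1, 92.4 and 86.3 CPM in OE UPAT (log2 fold change -0.91 ± 0.07, edgeR FDR = 5.18e-06). BCAT-2, the aminotransferase that opens the pathway, was at 312, 339 and 307 CPM in OE APOLO and at 161, 167 and 139 CPM in OE UPAT (log2 fold change -1.03 ± 0.09, edgeR FDR = 7.14e-06). WT was above both lines in all 9, so that the order was WT, OE APOLO, OE UPAT.

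Among trehalose phosphate genes 6 of 16 were lower and none higher (median -0.04). Members of class II, most of which are thought to regulate rather than catalyse, made up 5 of the 6, with TPS11 at 202, 212 and 211 CPM in OE APOLO and at 110.1, 117 and 118 CPM in OE UPAT (log2 fold change -0.86 ± 0.07, edgeR FDR = 6.6e-06) and TPS8, TPS9, TPS10 and ATTPS6 between -0.49 and -0.29. TPS10 was not called on leaving out any 1 library other than OE APOLO A. The sixth was TRE1 (-1.01), the trehalase. In seed oil breakdown 5 of 19 were lower and none higher (median -0.18), with ACX4 (-0.58) among them, and the count was 2 without OE UPAT C and 3 without OE UPAT A or B or with upper-quartile scaling.

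**Figure D3:**
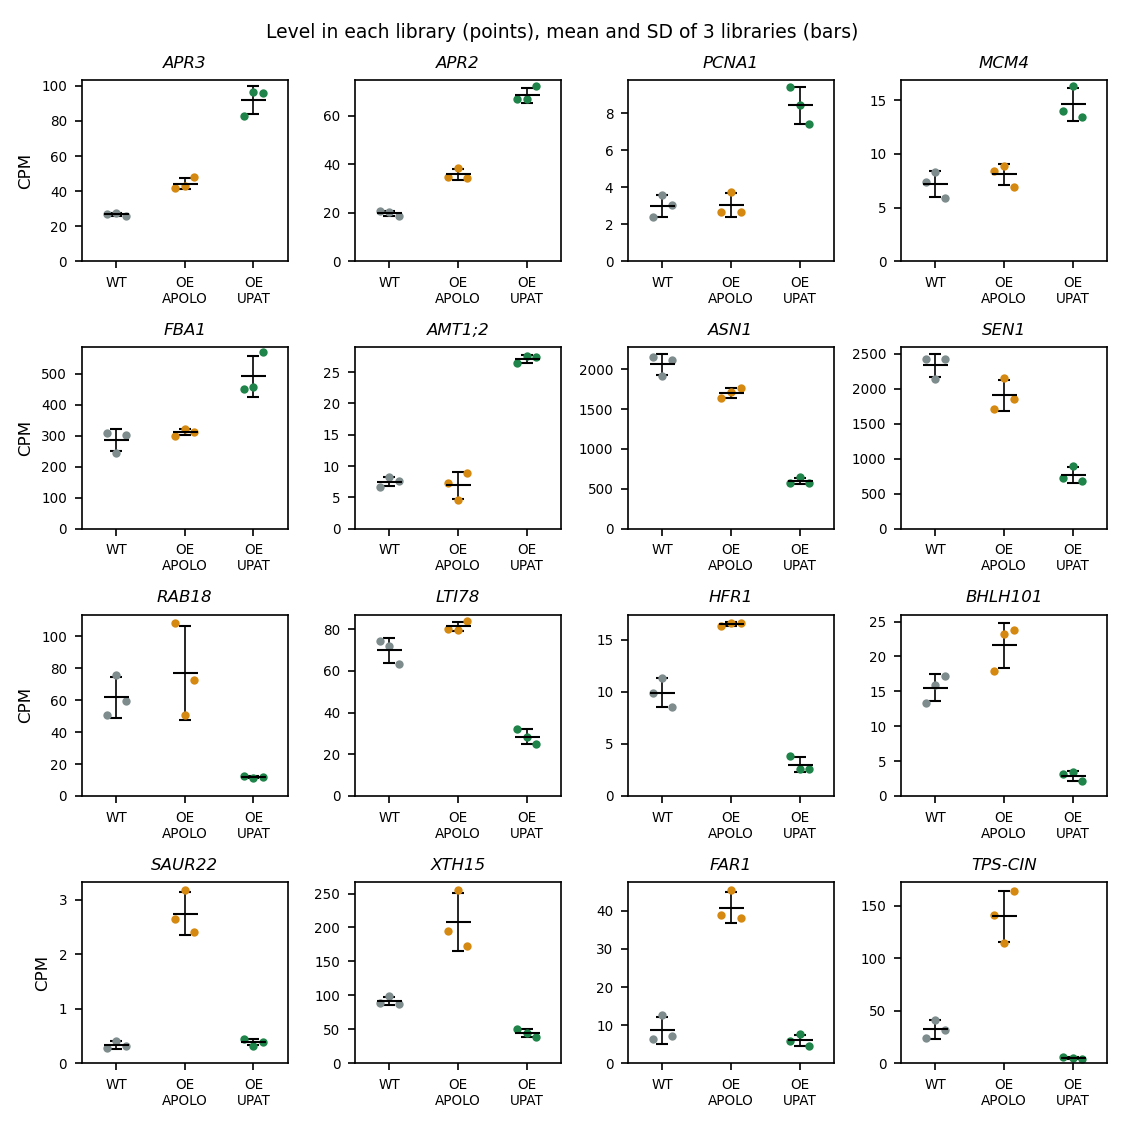
Level in CPM (vertical axes, each from 0) of 16 genes in WT (grey), OE APOLO (orange) and OE UPAT (green), with 1 point for each library and bars for the mean ± SD (n = 3). APR3, PCNA1, FBA1 and AMT1;2 stand highest in OE UPAT, ASN1 and RAB18 lowest, and SAUR22 and FAR1 stand apart in OE APOLO, with WT beside OE UPAT.

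Cold and abscisic acid (ABA) responsive genes showed the largest shift to the lower side of any list with more than 20 tested members. ABA, the hormone of water shortage, acts through ABF factors on protective proteins. Of 28 tested genes 20 were lower and none higher (median -0.85). RAB18, a dehydrin, was at 109, 50.6 and 72.5 CPM in OE APOLO and at 12.4, 11.5 and 11.6 CPM in OE UPAT (log2 fold change -2.7 ± 0.24, edgeR FDR = 1.02e-05). LTI78 (also RD29A), the classical cold and drought gene, was at 80.3, 79.9 and 84 CPM in OE APOLO and at 32.2, 28.2 and 25.1 CPM in OE UPAT (log2 fold change -1.51 ± 0.09, edgeR FDR = 6.89e-07). KIN2 was at 83.6, 94.9 and 89.6 CPM in OE APOLO and at 36.5, 34.1 and 35.1 CPM in OE UPAT (log2 fold change -1.34 ± 0.08, edgeR FDR = 5.72e-07). No OE UPAT library reached any OE APOLO library, and for RAB18 and LTI78 WT was near OE APOLO (50.5, 75.8 and 59.6 and 74.6, 72 and 63.2 CPM).

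LTI65 (also RD29B), whose promoter is a standard ABA reporter, was at 113, 31.6 and 29.3 CPM in OE APOLO and at 7.25, 6.62 and 4.96 CPM in OE UPAT (log2 fold change -3.20 ± 0.51, edgeR FDR = 0.000726). P5CS1, which makes proline, was at 60.1, 56 and 73.8 CPM in OE APOLO and at 28.8, 21.7 and 23.5 CPM in OE UPAT (log2 fold change -1.36 ± 0.12, edgeR FDR = 1.4e-05). NCED3, the controlled step of ABA synthesis, was at 6.94, 6.5 and 5.07 CPM in OE APOLO and at 2.53, 3.15 and 3.39 CPM in OE UPAT (log2 fold change -1.04 ± 0.20, edgeR FDR = 0.00262), a call lost without OE UPAT A or B. As with ECP63 and BIP3, OE APOLO A was the highest OE APOLO library for RAB18 and LTI65, and WT B the highest of WT (28.2, 83.7 and 37.1 CPM for LTI65). Members of the signal chain were lower too, namely the phosphatases ABI1 (-0.51), ABI2 (-1.13) and HAB1 (-0.89), which hold the pathway back, and the factors ABF3 (-0.76) and ABF4 (-0.37, lost on leaving out any 1 OE UPAT library). Without 1 library at a time, 14 to 19 of the list were called, all lower.

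The ABA-responsive element, searched as ACGTGTC, stood in 8.93% of promoters of genes lower in OE UPAT, 4.46% of those higher and 5.05% of all. Its letters overlap those of the G-box CACGTG, which factors of light and ABA share. In 370 of 967 promoters with the element it overlapped a G-box. Among cold and ABA genes the element stood in 5 of the 20 called promoters and in 8 of 28 over the whole list. Most called members thus lacked it, and members that were not called carried it too. RAB18 (chr5:26519398-26519697, minus strand) and LTI65 (chr5:21236771-21237070, plus strand) are shown with ACGTGTC in capitals.
RAB18: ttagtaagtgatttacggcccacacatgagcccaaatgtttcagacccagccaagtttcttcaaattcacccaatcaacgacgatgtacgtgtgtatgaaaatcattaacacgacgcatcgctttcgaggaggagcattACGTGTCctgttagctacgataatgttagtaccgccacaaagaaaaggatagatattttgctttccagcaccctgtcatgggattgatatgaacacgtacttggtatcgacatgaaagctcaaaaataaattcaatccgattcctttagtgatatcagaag
LTI65: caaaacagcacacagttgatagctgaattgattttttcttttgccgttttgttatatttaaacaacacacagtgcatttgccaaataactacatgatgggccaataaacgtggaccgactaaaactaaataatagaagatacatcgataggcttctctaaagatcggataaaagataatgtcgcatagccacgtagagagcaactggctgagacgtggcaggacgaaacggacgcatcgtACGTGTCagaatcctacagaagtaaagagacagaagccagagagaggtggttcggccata

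Clock genes that peak in the morning were lower in OE UPAT. The plant clock is a ring of repressors, with CCA1 and its relatives at dawn and PRR and evening complex genes later. Of 14 tested genes that peak in the morning 9 were lower and none higher (median -0.68), all 14 with a negative sign. Of 12 that peak in the evening 2 were higher and none lower, or 16.7%, near the 14.8% of all genes tested, with a median of 0.01 and signs of 6 positive and 6 negative. LCL1, a CCA1 relative, was at 219.8, 230.5 and 232 CPM in OE APOLO and at 109, 124.18 and 107 CPM in OE UPAT (log2 fold change -1.0 ± 0.08, edgeR FDR = 4.64e-06). RVE1, which links clock and auxin, was at 18.7, 20.5 and 23.9 CPM in OE APOLO and at 9.66, 9 and 12.9 CPM in OE UPAT (log2 fold change -1.0 ± 0.15, edgeR FDR = 0.000417). PRR9 was at 5.96, 4.76 and 6.49 CPM in OE APOLO and at 2.96, 2.44 and 1.5 CPM in OE UPAT (log2 fold change -1.29 ± 0.24, edgeR FDR = 0.00195), a call lost without OE UPAT B or C. CCA1 was lower (log2 fold change -0.98 ± 0.20, edgeR FDR = 0.00367), except without OE UPAT A or B, while its partner LHY was at 2.87, 2.58 and 3.53 CPM in OE APOLO and at 2.42, 3.47 and 2.48 CPM in OE UPAT (log2 fold change -0.09 ± 0.24, edgeR FDR = 0.821), with overlapping groups.

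In the evening set ELF4, of the evening complex, was at 42.3, 48.9 and 47.4 CPM in OE APOLO and at 69.8, 76.7 and 79.2 CPM in OE UPAT (log2 fold change 0.70 ± 0.08, edgeR FDR = 9.41e-05). PRR3 was at 24.5, 23.5 and 24.2 CPM in OE APOLO and at 41.7, 37 and 32.8 CPM in OE UPAT (log2 fold change 0.63 ± 0.10, edgeR FDR = 0.00057). TOC1 and GI were not called, with log2 fold changes of 0.05 and 0.11. The hour of harvest of each group is not given in the sources used here. Line and harvest time therefore cannot be told apart, for the clock genes or for the starvation and other genes described here.

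The G-box stood in 6 of the 9 called morning promoters and ACGTGTC in 4, against 8.78% and 5.05% of all. Over the whole list the G-box stood in 10 of 14 and ACGTGTC in 6 of 14, so that members that were not called carried them too. AT3G12320, of a small family of clock cofactors, which was lower (log2 fold change -1.53 ± 0.36, edgeR FDR = 0.00805) but not on leaving out any 1 library other than OE APOLO C, and PRR9 carry both, shown in capitals (chr3:3923265-3923564, plus strand, and chr2:19232357-19232656, plus strand).
AT3G12320: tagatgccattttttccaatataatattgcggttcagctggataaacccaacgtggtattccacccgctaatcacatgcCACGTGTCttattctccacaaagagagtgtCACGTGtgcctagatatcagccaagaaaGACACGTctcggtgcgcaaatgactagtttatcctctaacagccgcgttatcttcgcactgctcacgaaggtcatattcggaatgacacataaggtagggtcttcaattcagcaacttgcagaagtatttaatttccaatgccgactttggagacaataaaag
PRR9: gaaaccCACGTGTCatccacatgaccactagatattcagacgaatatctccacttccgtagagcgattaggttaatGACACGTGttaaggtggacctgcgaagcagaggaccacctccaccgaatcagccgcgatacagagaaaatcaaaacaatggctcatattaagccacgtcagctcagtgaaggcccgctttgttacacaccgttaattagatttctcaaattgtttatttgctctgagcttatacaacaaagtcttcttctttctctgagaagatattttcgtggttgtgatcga

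Genes of the light and warmth growth pathway were lower in OE UPAT. Phytochromes sense light and hold down PIF factors, which drive elongation of the hypocotyl. Of 37 tested genes 13 were lower and none higher (median -0.32). HFR1, an inhibitor that binds PIF factors, was at 16.3, 16.6 and 16.6 CPM in OE APOLO and at 3.84, 2.6 and 2.61 CPM in OE UPAT (log2 fold change -2.44 ± 0.16, edgeR FDR = 1.41e-06). PHYA, the far-red phytochrome, was at 281, 289 and 270.2 CPM in OE APOLO and at 148, 143 and 134 CPM in OE UPAT (log2 fold change -0.98 ± 0.07, edgeR FDR = 3.08e-06). PIF4, the main PIF factor of warm growth, was at 133, 134 and 138 CPM in OE APOLO and at 70.3, 75.4 and 67 CPM in OE UPAT (log2 fold change -0.93 ± 0.07, edgeR FDR = 5.18e-06). WT lay between the lines in all 3, with means of 9.89, 231 and 109 CPM.

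Also lower were PIF5, annotated PIL6 (-0.77), PIF3 (-0.68), PIF1, annotated PIL5 (-0.44), the phytochrome kinase substrates PKS1 (-0.55), PKS2 (-1.23) and PKS4 (-1.89), and HB-2 (-0.64), a marker of shade. The call of HB-2 was lost on leaving out any 1 library other than OE APOLO A, that of PKS1 without OE UPAT A or C and that of PIF1 without OE UPAT C. The list thus held both promoters and inhibitors of PIF action on the lower side.

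Among early auxin response genes, Aux/IAA and SAUR genes held more lower than higher calls, with WT nearer OE UPAT for most lower ones. GH3 genes did not follow, with 1 higher and 1 lower of 5 tested. Auxin removes Aux/IAA repressors and induces the same genes within minutes. Of 22 tested Aux/IAA genes 9 were lower and none higher (median -0.34). IAA7 was at 279, 314 and 315 CPM in OE APOLO and at 177, 190.1 and 189.8 CPM in OE UPAT (log2 fold change -0.70 ± 0.08, edgeR FDR = 5.41e-05), with WT at 208, 212 and 209, and IAA19 at 4.22, 5.39 and 2.49 CPM in OE APOLO and at 1.65, 1.08 and 1.7 CPM in OE UPAT (log2 fold change -1.47 ± 0.32, edgeR FDR = 0.00546), a call lost without OE APOLO B or any 1 OE UPAT library. Of 48 tested SAUR genes, small proteins that loosen cells for growth, 12 were lower and 2 higher (median -0.30).

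The lower SAUR genes came from sets of neighbours on chromosomes 5, 3 and 1. SAUR22 was at 2.64, 3.175 and 2.41 CPM in OE APOLO and at 0.439, 0.325 and 0.392 CPM in OE UPAT (log2 fold change -2.80 ± 0.34, edgeR FDR = 0.000112), with WT at 0.288, 0.413 and 0.309, and SAUR20 at 5.13, 6.11 and 4.9 CPM in OE APOLO and at 1.54, 2.06 and 2.35 CPM in OE UPAT (log2 fold change -1.45 ± 0.22, edgeR FDR = 0.00057). These are low counts of similar short genes, some with shared reads. The lower SAUR count was 6 without OE APOLO B and 7 without OE UPAT A or C, and the higher count 1 without OE UPAT B and 0 without OE UPAT C.

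Genes that make auxin showed no called difference. None of 7 tested TAA and YUC genes was called by edgeR or DESeq2, and 1 was lower at an unadjusted p under 0.05. YUC2, the target the study followed, was at 2.26, 1.92 and 2.41 CPM in OE APOLO and at 1.87, 1.95 and 1.17 CPM in OE UPAT (log2 fold change -0.38 ± 0.28, edgeR FDR = 0.345). YUC8 was at 4.9, 5.83 and 4.39 CPM in OE APOLO and at 3.73, 3.8 and 3.52 CPM in OE UPAT (log2 fold change -0.45 ± 0.19, edgeR FDR = 0.0954). Among 17 carriers and their kinases 3 were lower, AUX1 (-0.37), LAX1 (-0.46) and ABCB19 (-0.37), while 1 was without OE UPAT A or B and 0 without OE UPAT C. Of 17 brassinosteroid genes 4 were lower and none higher (median -0.27), namely the synthesis enzymes CPD (-0.67), DWF4 (-0.61), BR6OX2 (-0.51) and ROT3 (-0.44), and 2 were without OE APOLO C or OE UPAT C.

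XTH and water channel genes had more members lower than higher. XTH enzymes cut and rejoin xyloglucan in the wall, and 10 of 29 tested were lower and 2 higher (median -0.37). XTH15 was at 195, 256 and 173 CPM in OE APOLO and at 50.7, 44.5 and 38.2 CPM in OE UPAT (log2 fold change -2.22 ± 0.14, edgeR FDR = 1.08e-06). The higher members, XTH9 (0.41) and XTH20 (1.47), were not both called on leaving out any 1 library, and neither was called on leaving out any 1 OE UPAT library. Of 19 aquaporin genes 8 were lower and none higher (median -0.40), in a narrow range from -0.64 for PIP3 to -0.41 for TIP2, which was not called on leaving out any 1 library other than OE APOLO A. No cellulose synthase gene was called of 9 by edgeR, against 1 lower by DESeq2 and 3 lower at an unadjusted p under 0.05.

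Surface lipid genes held more lower than higher calls, while most were not called. Of 28 tested genes of suberin and the Casparian strip, the barriers of the root, 9 were lower and 1, CDEF1, higher (median -0.32), and 4 were lower without OE UPAT B. KCS2, which elongates suberin acids, was at 16.8, 15 and 16.1 CPM in OE APOLO and at 6.15, 6.29 and 6.13 CPM in OE UPAT (log2 fold change -1.36 ± 0.13, edgeR FDR = 1.5e-05). CYP86A1, which oxidises them, was at 29.4, 24.1 and 37.8 CPM in OE APOLO and at 14.3, 13.9 and 16.1 CPM in OE UPAT (log2 fold change -1.04 ± 0.15, edgeR FDR = 0.000385). CASP5, a scaffold of the strip, was at 17.57, 21.2 and 19.6 CPM in OE APOLO and at 7.36, 8.35 and 7.7 CPM in OE UPAT (log2 fold change -1.32 ± 0.13, edgeR FDR = 1.8e-05). WT was between the lines for KCS2 (8.42, 12.4 and 10.2 CPM), overlapped OE UPAT for CYP86A1 (12, 17.64 and 14.2 CPM) and was near OE APOLO for CASP5 (17.8, 17 and 18.9 CPM).

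Of 29 wax and cutin genes 8 were lower and 2 higher (median -0.18), and 3 were lower without OE UPAT B or C, 5 with upper-quartile scaling, 4 without OE APOLO B or OE UPAT A and 5 without OE APOLO C. MYB96, a regulator of wax in drought, was at 13.4, 13.8 and 15.7 CPM in OE APOLO and at 6.37, 7.48 and 7.44 CPM in OE UPAT (log2 fold change -1.01 ± 0.14, edgeR FDR = 0.000232). Opposite to its partner CER3 (-0.51), CER1, with which it makes wax alkanes, was at 3.85, 1.77 and 3.1 CPM in OE APOLO and at 13.6, 11 and 10.4 CPM in OE UPAT (log2 fold change 2.01 ± 0.23, edgeR FDR = 7.5e-05).

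Among genes of root triterpene clusters and terpene synthases, 5 of 9 tested were lower and none higher (median -1.18), the cineole synthase included. MRN1, marneral synthase, was at 8.75, 9.75 and 10.5 CPM in OE APOLO and at 1.65, 0.542 and 0.522 CPM in OE UPAT (log2 fold change -3.37 ± 0.29, edgeR FDR = 9.94e-06) and its cluster neighbour CYP71A16 had a log2 fold change of -1.18. CYP708A2, of the thalianol cluster, was at 32.7, 32.4 and 42.2 CPM in OE APOLO and at 13.2, 9.27 and 9.27 CPM in OE UPAT (log2 fold change -1.75 ± 0.15, edgeR FDR = 8.96e-06) and its neighbour CYP705A5 at -1.18 in log2 fold change. All 5 had WT between the lines.

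Flavonoid enzymes, which make sunscreen pigments, were higher for 4 of 10 tested and lower for none (median 0.39). TT4, chalcone synthase and the first step, was at 3.32, 3.62 and 10.8 CPM in OE APOLO and at 25.9, 25.8 and 43.7 CPM in OE UPAT (log2 fold change 2.45 ± 0.34, edgeR FDR = 0.000308). FLS1, flavonol synthase, was at 2.49, 2.21 and 4.04 CPM in OE APOLO and at 7.47, 7.27 and 10.4 CPM in OE UPAT (log2 fold change 1.53 ± 0.24, edgeR FDR = 0.000664), and the next step TT5, chalcone isomerase, at 6.26, 8.71 and 11.4 CPM in OE APOLO and at 7.8, 10.2 and 8.74 CPM in OE UPAT (log2 fold change 0.03 ± 0.20, edgeR FDR = 0.943). The groups of TT5 overlapped and those of the others did not. MYBL2, which represses the pathway, was lower (-0.74, edgeR FDR = 9.04e-05).

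Defence and jasmonate genes were mixed. Of 19 defence genes 5 were higher and 3 lower (median 0.09), with PR1, the salicylic acid marker, at 0.113, 0 and 0 CPM in OE APOLO and at 2.03, 1.74 and 1.63 CPM in OE UPAT, which is 1.5, 0 and 0 counts in OE APOLO, so that no fold is given, and EARLI1, a lipid transfer relative, at 9.35, 4.28 and 2.67 CPM in OE APOLO and at 25.6, 35.8 and 46.6 CPM in OE UPAT (log2 fold change 2.7 ± 0.32, edgeR FDR = 8.31e-05). LOX2, the chloroplast lipoxygenase of jasmonate synthesis, was at 2.11, 2.44 and 2.67 CPM in OE APOLO and at 11.3, 8.68 and 11.4 CPM in OE UPAT (log2 fold change 2.11 ± 0.18, edgeR FDR = 9.86e-06), with WT at 0.36, 1.1 and 0.773. Of 12 jasmonate synthesis genes 3 were higher and 1 lower, the lower one lost on leaving out any 1 library. Genes that respond to jasmonate were 1 higher (JAZ4, 1.58, a repressor of the response) and 4 lower of 17 (median -0.25), with 2 lower without OE APOLO C or OE UPAT B and 1 without OE UPAT A or C. The lower defence count was 1 on leaving out any 1 OE UPAT library.

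In the other lists the share called varied, against 14.8% of all genes tested. It was 40% for GH3 genes, 38.5% for green tissue markers, 28.6% for seed genes and 25% for cytokinin genes. For alpha-expansins it was 23.5% and for arabinogalactan proteins 21.1%. Gibberellin genes (15.8%) and root hair regulators and wall proteins (13.8%) were near the share of all genes, and heat shock genes (10%) below it. Lists could share members, so that these shares are not all of separate genes. The kelch F-box gene AT1G80440 stood in the starvation and cytokinin lists, and RBCS1A in the Calvin cycle and green tissue lists. Of 29 root hair regulators and wall proteins 4 were lower (median -0.52), among them the proline-rich proteins PRP1 (-1.26) and PRP3 (-1.11) of the hair wall. That count was 9 without OE APOLO A, 2 without OE APOLO C or with upper-quartile scaling and 0 on leaving out any 1 OE UPAT library. Of 10 root hair patterning genes none was called by edgeR or DESeq2, with 2 higher and 1 lower at an unadjusted p under 0.05.

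Arabinogalactan proteins were 2 higher and 6 lower of 38 (median 0.07), the split turning to 3 higher and 1 lower with upper-quartile scaling, the lower count being 1 without OE UPAT A or C and 2 without OE UPAT B, and the higher count 5 without OE APOLO A. Alpha-expansins, which loosen walls at low pH, were 2 higher and 2 lower of 17 (median 0.04), with 4 lower without OE APOLO A and 1 higher without OE APOLO B or any 1 OE UPAT library. Cytokinin genes were 4 lower of 16 (median -0.21), and 2 without OE APOLO B or C or OE UPAT A. Gibberellin genes were 1 higher and 2 lower of 19, and GH3 genes, which conjugate auxin, 1 higher and 1 lower of 5, both lost without OE UPAT B. The lower gibberellin count was 1 without OE APOLO B or any 1 OE UPAT library.

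Heat shock genes were 2 lower of 20 (median -0.07), BIP3 and HSFB2A (-0.86), a repressor of the heat response, and neither was called without OE UPAT B. Without OE UPAT C 1 was lower, and without OE APOLO A 2 others were higher. Seed storage and maturation genes had the most negative median, -2.21 over 7 tested, but only 2 were lower, the oil body protein gene OLEO2 (-2.97) and GEA6 (-2.46). OLEO2 was at 12.8, 3.54 and 2.75 CPM in OE APOLO and at 0.769, 0.976 and 0.653 CPM in OE UPAT, with OE APOLO A again the highest library. The seed count was 0 on leaving out any 1 OE UPAT library and 5 without OE APOLO C. Of 13 green tissue markers 3 were higher and 2 lower, and 9 vascular and 4 flower markers had 0 called by edgeR and by DESeq2, with 1 and 2 lower at an unadjusted p under 0.05. The lower green tissue count ran from 0 without OE UPAT A or B to 4 without OE APOLO A.

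The genes the study centres on were examined by name. VIM1 was at 28.9, 90.4 and 36 CPM in OE APOLO and at 13.9, 11 and 13.3 CPM in OE UPAT (log2 fold change -2.03 ± 0.36, edgeR FDR = 0.00153), with WT at 51.2, 13.2 and 20.07. The groups of the lines did not overlap, but OE APOLO B was more than 2 times its other libraries, the WT libraries overlapped those of both lines, some reads were shared, and the call was lost without OE UPAT B or C. VIM2 (0.42), VIM3 (0.42) and LHP1, annotated TFL2 (-0.13, edgeR FDR = 0.392), were not called. PP2A (AT1G13320), a reference gene in the study, was at 55.1, 62.5 and 63.3 CPM in OE APOLO and at 55.3, 55.4 and 54.9 CPM in OE UPAT (log2 fold change -0.13 ± 0.08, edgeR FDR = 0.263).

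Among 16 genes of DNA methylation upkeep 3 were higher and 1, VIM1, lower. MET1, which copies CG methylation, was at 20.6, 20.7 and 18.5 CPM in OE APOLO and at 37.4, 34.3 and 35.5 CPM in OE UPAT (log2 fold change 0.84 ± 0.09, edgeR FDR = 3.49e-05). CMT3, the CHG methyltransferase, was at 7.69, 7.24 and 4.73 CPM in OE APOLO and at 12.2, 12.7 and 14.9 CPM in OE UPAT (log2 fold change 1.0 ± 0.18, edgeR FDR = 0.00145). DDM1, annotated CHR1, a chromatin remodeller, was at 3.7, 2.95 and 4.3 CPM in OE APOLO and at 7.47, 6.62 and 7.7 CPM in OE UPAT (log2 fold change 0.99 ± 0.18, edgeR FDR = 0.00191). Without OE UPAT C only MET1 of these was called. The call of DDM1 was also lost without OE UPAT A. Polycomb genes (16 tested) and genes of RNA-directed DNA methylation (14 tested) had 0 called by edgeR and by DESeq2, with 1 higher and 2 lower and 1 higher and 1 lower at an unadjusted p under 0.05.

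The level of WT relative to the lines differed between these groups of genes. Over all called genes the mean of WT was nearer OE APOLO for 1080 of 1327 higher genes (81.4%) and 1136 of 1534 lower ones (74.1%), against 64.3% of all genes tested. For sulfate, Calvin cycle, replication and nitrogen genes and for branched-chain, trehalose and morning clock genes it was nearer OE APOLO in every called gene. It was nearer OE UPAT for 12 of 12 lower SAUR genes, 8 of 8 lower wax and cutin genes, 7 of 9 Aux/IAA, 7 of 9 suberin and 7 of 10 XTH genes. These positions compare means of 3 libraries and were given no test.

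**Figure D4:**
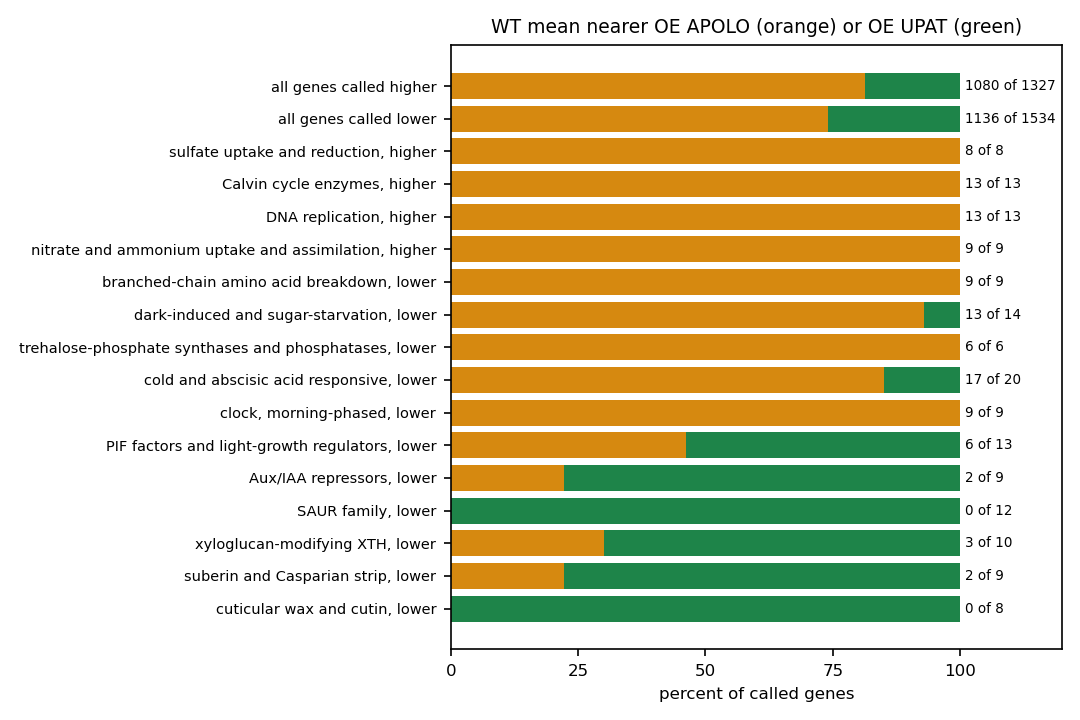
Percent of called genes (horizontal axis) whose WT mean is nearer OE APOLO (orange) or nearer OE UPAT (green), on log2(CPM + 0.5), for all called genes and for called members of 15 lists. Numbers beside the bars count genes nearer OE APOLO, 8 of 8 for sulfate genes and 0 of 12 for lower SAUR genes.

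Promoter motifs were also counted over all called genes. The telo-box AAACCCTA stood in 9.83% of promoters of higher genes, 2.15% of lower and 5.54% of all tested. Site II, TGGGCC, stood in 23.4%, 9.91% and 19.1%, the E2F forms TTTGGCGC in 1.44%, 0.261% and 0.464% and TTTCCCGC in 1.21%, 0.456% and 0.809%, and the G-box CACGTG in 7.03%, 14.1% and 8.78%. Among called genes that changed by 1 or more on the log2 scale in either direction, site II stood in 8.36% of 335 higher promoters, the telo-box in 5.67%, TTTGGCGC in 2.99% and TTTCCCGC in 0.597%, while ACGTGTC stood in 12.8% of 345 lower ones. The higher share of the telo-box thus came near that of all promoters, and those of site II and TTTCCCGC were below it. TATCCA, the sugar starvation element, stood in 18.3% of higher, 21.3% of lower and 16.7% of all promoters. The evening element AAAATATCT (4.01%, 3.26% and 3.04%), the W-box forms TTGACC (14.5%, 14% and 14.4%) and TTGACT (22.2%, 19.2% and 21.7%), the heat shock element (0.605%, 0.456% and 0.522%) and GAAGAA, the box named in the study (34.9%, 36.4% and 39%), differed less between the sets. These are matches of letters on either strand, described without a test.

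**Figure D5:**
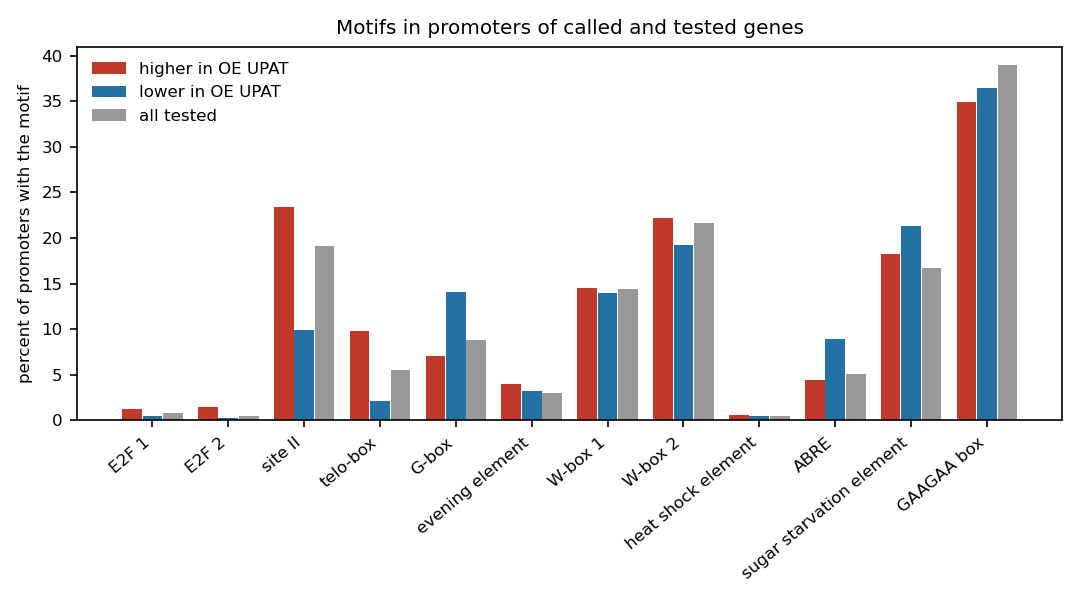
Percent of promoters (vertical axis) that hold each of 12 motifs on either strand, among genes higher in OE UPAT (red, n = 1322), lower (blue, n = 1534) and all tested (grey, n = 19163). The telo-box and site II are more frequent in red than in blue, the G-box and the ABA-responsive element (ABRE) more in blue.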

How the data were processed

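Whole 4-day-old seedlings were profiled by RNA-Seq, 3 libraries each of WT, OE APOLO and OE UPAT, and this comparison used the 6 libraries of the lines. Per the submitters' processing notes the authors trimmed reads with Trimmomatic 0.36, aligned them with STAR 2.5.2b to TAIR10 and counted them with featureCounts of Subread 1.6.5, and the methods name SortMeRNA for removing ribosomal reads and the Araport11 annotation. The deposited values are estimated counts per gene, not normalized, and include fractions where a read was shared between features. Whether strand was used in counting is not given in the sources used here.

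Counts were rounded to whole numbers and scaled by TMM over all 9 libraries. Genes that passed the filterByExpr filter (19290 of 38194) were fitted on the 6 libraries with edgeR 4.0.16 (quasi-likelihood, R 4.3.3, limma 3.58.1), without covariates, and called at a Benjamini-Hochberg FDR under 0.01 with no minimum fold. DESeq2 1.42.0, other scalings and filters, a replicate block, libraries thinned to the smallest total and each library left out in turn were alternatives. Data were simulated for this comparison (19290 genes) with the dispersions fitted here. The genes changed in them were drawn from those with a mean above 5 CPM. Of these, 86 of 100 changed by a log2 fold change of 1 and 45 of 100 changed by 0.5 were called, with 6 false calls. The 6 false calls were a larger share of the simulated calls than the FDR of 0.01. Far fewer genes were changed than the 2861 called in these data, and recovery with that many changed genes was not simulated. Recovery of changes in genes at lower levels was not simulated either. Levels are CPM. The methods state that replicates were independent biological ones for each genotype, in a sentence on a set of lines that does not name OE UPAT, and do not say how they were grown apart, so that p-values measure the spread between the libraries as labelled. Floors of 3 counts cover counting error only.

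Symbols and promoters came from the RefSeq annotation of TAIR10.1, in which 37898 of the 38194 genes were found. Named genes were, in each direction, the 8 with the smallest p (mean 1 CPM or more) and the 5 with the largest fold (mean 5 CPM or more), then up to 4 called members of each list with the smallest p, members of known regulatory steps, and the genes of the study. Other members named in the text, and the genes whose promoters are printed, were chosen after their values were seen. The members and lists were chosen with earlier results of these data known. The WT position used log2(CPM + 0.5). Motifs were matched on both strands of the 300 bases from 250 before to 50 after the gene start. Transposable element rows were left out.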

Additional observations from a re-analysis of the deposited data

How the results depend on the processing

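Of 19290 genes tested, 2861 were called at an FDR under 0.01, 5163 at an FDR under 0.05 and 685 at an FDR under 0.01 when a change of 1 or more on the log2 scale was also required. Leaving out 1 library at a time gave 1441 to 3118 genes, 201 to 361 of the list members (320 with all libraries) and 139 to 169 of the named genes (174). The lowest counts came without OE UPAT C, with 1441, or OE UPAT B, with 1527, and list members then numbered 201 and 204. The cause was not tested. No direction of a called named gene reversed under any alternative, and across the alternatives 150 results of named genes lost their call while 2715 kept their side of the threshold. Upper-quartile scaling called 2901 genes, 2530 of them shared with the 2861, and moved the median of all genes from -0.01 to 0.04, while DESeq2 called 2695, of which 2437 were shared. Deviations from the line mean correlated at 0.19, 0.16 and 0.01 between libraries of the same letter (A, B and C). Between libraries of different letters they ran from -0.22 to 0.07. Whether the letters mark shared batches was not tested. With the letter as a replicate block 3850 genes were called, 2854 of them shared. OE UPAT libraries held 7883571 to 9184836 counts against 11887311 to 14078290 in OE APOLO, and with every library thinned to the smallest total 2615 genes were called, 2470 of them shared.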

Other observations

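Called genes were spread over the nuclear chromosomes in similar shares, 14.8% of tested genes on chromosome 1, 15.3% on chromosomes 2 and 3, 15.1% on chromosome 4 and 14.3% on chromosome 5. Of 296 organelle genes counted, not all of them tested, 5 were called. There were 4 runs of at least 4 neighbouring tested genes called in 1 direction. On chromosome 1, 5 neighbours that include the GDSL lipase genes GLIP5, GLIP2 and GLIP3 and GLL22 had higher levels in OE UPAT, by 0.60 to 2.14 on the log2 scale. On chromosome 2, 5 neighbours that include SNG1, which makes sinapoylmalate, a sunscreen compound of leaves, and its relatives SCPL11, SCPL12 and SCPL13 were lower, from -1.17 to -0.59, and all 5 have counts with fractions, so shared reads may join them. On chromosome 4, 4 neighbours that include MES16, a methylesterase that acts on a chlorophyll breakdown product, were lower, from -0.84 to -0.59. On chromosome 5, 4 neighbours that end at the wax gene CER3 were lower, from -0.92 to -0.51. These runs were noticed in the data and were given no test.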
